A study of Mus musculus with 4 samples.

Results

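The citric acid cycle oxidizes acetyl groups in the mitochondrial matrix and hands their electrons to the respiratory chain. Pyruvate dehydrogenase makes the acetyl-CoA that enters the cycle, and succinate dehydrogenase is at once an enzyme of the cycle and a complex of the respiratory chain. Cells of the colonic epithelium, and the absorptive cells above all, rely on mitochondrial oxidation of butyrate and other fuels. The genes described here are *Pdha1*, *Cs*, *Idh2*, *Idh3a*, *Idh3b*, *Ogdh*, *Sdha*, *Fh1* and *Mdh2*. They are nuclear genes of the mitochondrial enzymes, picked out of the table by symbol, and each was found once, which makes 9 of the 16015 genes in the deposited table.

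The RNA of 2 control mice and of 2 *Bmal1* cKO mice was sequenced in bulk. The control mice, labelled WT, were *Bmal1* fl/fl mice without Cre per the methods. *Bmal1* cKO mice were *Villin-CreERT2; Bmal1* fl/fl, in which tamoxifen, injected on 5 consecutive days, activates Cre in the intestinal epithelium and not in other cells of the colon. Whether the control mice were given tamoxifen is not stated. All mice were C57BL/6, 2 to 4 months old and of the same litter, per the methods. Mice of both groups drank 3% dextran sulfate sodium (DSS), which injures the colonic epithelium, for 5 days followed by 2 days of water, and their colonic epithelial cells were collected on day 7. No library here came from a mouse without DSS, so the comparison is between genotypes in injured colon. It asks which transcripts differ when the clock transcription factor BMAL1 is deleted from the epithelium. The labels number the mice, and the p-values measure the spread between these 4 samples only.

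Normalized counts are the reads of a gene after division by a size factor for each library. Fold changes are log2 differences of the normalized count + 1, *Bmal1* cKO minus control, which understate the change of genes with few reads. Across 13983 genes whose mean normalized count reached 10, limma with Benjamini-Hochberg adjustment called 29.0% higher and 27.7% lower in the *Bmal1* cKO libraries at an adjusted p under 0.05, two-sided. These were 4059 and 3871 genes, which became 3091 and 4885 with the libraries scaled to all their reads, 3248 and 4576 with them scaled to mitochondrial genes, and 6641 and 1740 with them scaled to epithelial genes.

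Several features of the libraries moved with the groups. The log2 fold changes followed the GC content of the transcript, with a Spearman correlation of -0.61 across 13975 genes, which share the same 4 libraries. After each library was corrected for GC content and length by loess, limma called 17.3% of the genes higher and 17.9% lower. The summed normalized count of 18 leukocyte genes was 21241 and 23338 in control mice against 1636 and 1952 in *Bmal1* cKO mice, and 15 of the 18 fell (7 without *Bmal1* cKO mouse 1 and 10 without mouse 2). For 16 stromal genes the sums were 18152 and 5109 against 591 and 696, and 14 fell (8 without either *Bmal1* cKO mouse). *Des* was at 0 in *Bmal1* cKO mouse 1 and *Rgs5* at 0 in *Bmal1* cKO mouse 2. For 5 erythroid genes the sums were 1348 and 2033 against 19.5 and 17.6, and all 5 fell, with *Hba-a2* at 0 in both *Bmal1* cKO mice and *Hbb-bt* at 0 in mouse 1. The 16 epithelial genes summed to 237060 and 307550 in control mice against 180270 and 201230 in *Bmal1* cKO mice. *Muc2*, named with the next 3 genes after their values were seen, made up 62753 and 101737 of these sums against 24129 and 37690. Of the 16, 7 were not called, among them *Epcam* (log2 fold change -0.0044), *Krt19* (-0.14) and *Krt8* (0.16). The claudins *Cldn4* and *Cldn3* were among 8 that fell, with log2 fold changes of -2.01 and -1.55, and the differentiation keratin *Krt20* was the 1 that rose, by 0.68. Without *Bmal1* cKO mouse 2 the 8 became 5, *Cldn4* was not called without control mouse 2, and *Krt20* was not called without control mouse 1 or either *Bmal1* cKO mouse. After the GC and length correction 5 epithelial genes were higher by limma and none of the 16 was lower (5 at an unadjusted p under 0.05). The GC content of the 16 ran from 44.8% to 62.7%, and their median log2 fold change was -0.49, or 0.13 after the correction. Scaling to the epithelial genes used the uncorrected values of this list, so it is not independent of the GC trend. These values stand beside every result that follows, and their part in the results was not tested. In bulk samples fewer cells of a type and less RNA per cell cannot be told apart.

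The targeted gene, listed as *Arntl* (ENSMUSG00000055116, GRCm38 chromosome 7, 113207465 to 113314126), was at 358 and 342 normalized counts in control mice against 341 and 289 in *Bmal1* cKO mice. Both *Bmal1* cKO values were below both control values, but the log2 fold change was -0.16 (adjusted p = 0.389 from limma, standard error 0.14). After the GC and length correction it was -0.39 (adjusted p = 0.0859 from limma). With the libraries scaled to all their reads and to mitochondrial genes it was -0.38 and -0.33, not called. Its direction flipped only with the libraries scaled to the epithelial genes, where it was 0.54. By immunoblot and tissue staining the paper reported loss of BMAL1 protein from the epithelium of its knockout mice. The count covers the whole gene and does not separate the floxed part, and the deletion in these libraries was therefore not checked by it. Below, the groups are those the labels give.

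Of the 9 enzymes, 5 rose, 1 fell and 3 did not pass the test, against the 29.0% and 27.7% of all genes tested. The 5 were *Fh1*, *Sdha*, *Idh3a*, *Idh3b* and *Pdha1*, and the 1 that fell was *Mdh2*. *Cs*, *Idh2* and *Ogdh* were not called. With the libraries scaled to all their reads 3 rose and 2 fell, scaled to mitochondrial genes 3 and 1, and scaled to epithelial genes 8 and 0. The median log2 fold change of the 9 was 0.37, beside -0.04 over all genes tested, and ran from 0.23 to 0.46 when 1 mouse was left out. All 9 had a mean above the minimum, so none was lost to the filter. The values of the *Bmal1* cKO mice lay above both control mice for 5 of the 9 and below both for 1, compared with 40.3% and 41.7% of all genes tested. After the GC and length correction *Fh1*, *Sdha* and *Idh2* were higher, none of the 9 was lower by limma, at an unadjusted p under 0.05 either, and the median was 0.22, beside -0.02 over all genes. The shares of all genes were then 17.3% higher and 17.9% lower.

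**Figure D1:**
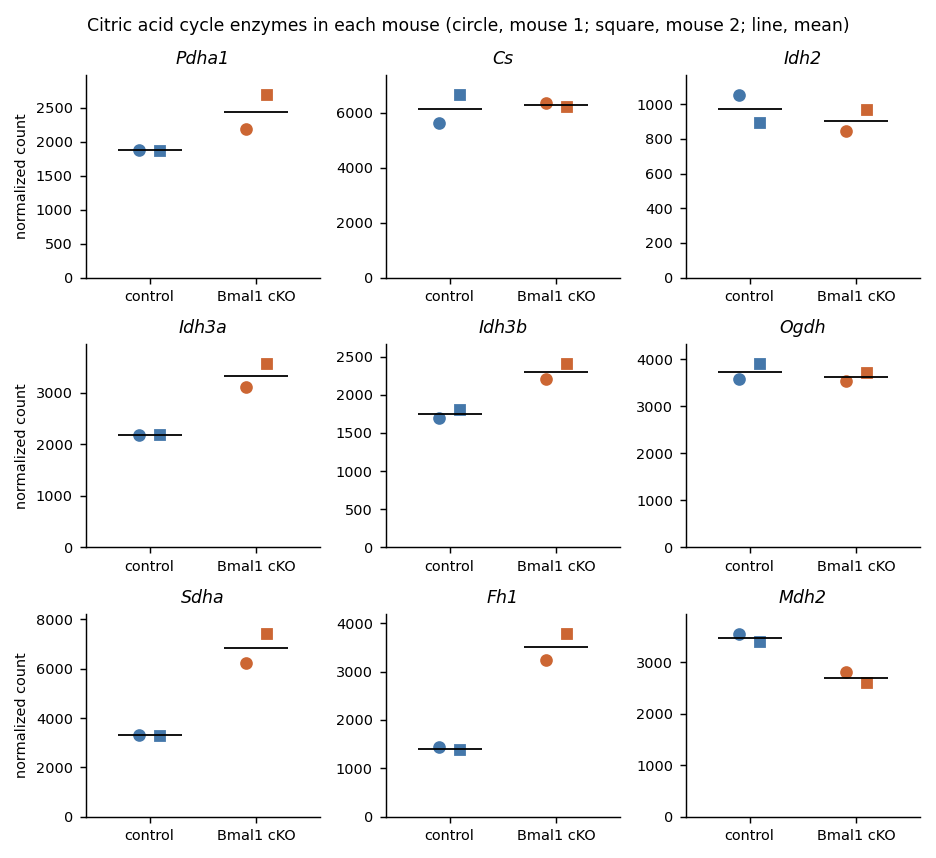
Normalized count (vertical axis, from 0, a scale of its own in each panel) of the 9 enzymes in each of the 4 mice, with the mean of each group as a line. *Fh1* and *Sdha* show the widest gaps between the groups, and the points of *Cs*, *Idh2* and *Ogdh* overlap. *Mdh2* is lower here, but its direction flips to 0.33 (log2), which did not pass the test, when the libraries are scaled to the epithelial genes.

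The upstream sequences of the 3 genes whose values the text returns to most are shown first, *Sdha* and *Fh1* as the enzymes that rose most and *Mdh2* as the one that fell. They are RefSeq promoter sequence of GRCm38.p6, 5′ to 3′ on the strand of the gene, and hold the bases before the start in both RefSeq and GENCODE. Capitals mark the NRF1 motif (GCGCA, any base, GCGC) in *Sdha* and the palindrome TCTCGCGAGA in *Mdh2*. The *Sdha* stretch is chr13:74350281-74350490 (minus strand), the *Fh1* stretch chr1:175625636-175625885 (minus strand) and the *Mdh2* stretch chr5:135778399-135778479 (plus strand).
Sdha: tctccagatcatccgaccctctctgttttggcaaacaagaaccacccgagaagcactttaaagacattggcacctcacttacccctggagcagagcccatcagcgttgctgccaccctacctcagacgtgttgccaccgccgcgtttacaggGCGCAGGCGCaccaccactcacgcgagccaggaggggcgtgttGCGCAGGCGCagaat
Fh1: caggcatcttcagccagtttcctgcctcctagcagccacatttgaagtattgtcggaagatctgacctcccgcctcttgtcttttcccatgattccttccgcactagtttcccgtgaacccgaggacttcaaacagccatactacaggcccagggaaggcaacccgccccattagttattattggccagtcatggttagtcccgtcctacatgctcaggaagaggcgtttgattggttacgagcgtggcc
Mdh2: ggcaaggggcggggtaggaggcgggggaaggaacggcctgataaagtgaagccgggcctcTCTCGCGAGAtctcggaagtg

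The NRF1 motif is read by nuclear respiratory factor 1, a transcription factor of many mitochondrial genes. It was searched on both strands in windows from 250 bases before to 50 after the start. The windows covered 8 of the 9 enzymes, all but *Idh3a*, and 11 of the 12 other subunits. *Sdha* was the only one of the 8 with a match, and it had 3, of which 2 lie in the stretch printed here. Among the 11 other subunits *Dld*, *Sdhd* and *Sucla2* had a match, and so did 5.19% of all 27025 genes in the table. The E-box CACGTG, the element that BMAL1 and CLOCK bind, was found in *Ogdh* alone among the 8, in 3 of the windows of its 6 starts, and in none of the 11, compared with 8.09% of all genes. An element read by estrogen-related receptors, TNAAGGTCA, was in none of the 8, in *Sdhd* among the 11 and in 1.43% of all genes. *Fh1* held none of these motifs. The palindrome of *Mdh2*, which was searched for only after the sequence was seen, occurred 3 times in its window and in 0.525% of all genes. A match of letters is a description and does not show binding.

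Pyruvate enters through the pyruvate dehydrogenase complex, whose catalytic E1 component pairs an α subunit from the X-linked gene *Pdha1* with a β subunit from *Pdhb*. *Pdha1* (ENSMUSG00000031299, chromosome X, 160122209 to 160138413, minus strand) had 1876 and 1864 normalized counts in control mice against 2189 and 2687 in *Bmal1* cKO mice. Both *Bmal1* cKO mice were above both control mice, and mouse 2 was the higher. The log2 fold change was 0.37 (standard error 0.12, 95% interval 0.07 to 0.68, adjusted p = 0.0456 from limma). This rise is the smallest of the 5 and did not pass with edgeR on the recovered reads (adjusted p = 0.0575), nor with limma without either control mouse or *Bmal1* cKO mouse 2. With the libraries scaled to all their reads and to mitochondrial genes the log2 fold change was 0.15 and 0.20, not called. After the GC and length correction it was -0.14 (adjusted p = 0.389 from limma). Among the 1418 genes within 1 percentage point of its GC content the median log2 fold change was 0.50, above that of *Pdha1* itself. *Pdha1* overlaps *Map3k15* on the opposite strand, with 426 identical bases in the transcripts, and *Map3k15* had a mean of 62.8 normalized counts.

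The partner subunit moved far more. *Pdhb* had 1163 and 1123 normalized counts in control mice against 4019 and 3943 in *Bmal1* cKO mice. This was a rise of 1.80 on the log2 scale (adjusted p = 5.33e-04 from limma, standard error 0.08), and 1.46 after the correction. Of the subunits of this enzyme and of the cycle that were examined, it had the largest rise in the deposited scaling. Per length, the ratio of *Pdhb* to *Pdha1* was 1.17 and 1.13 in control mice against 3.46 and 2.76 in *Bmal1* cKO mice, a ratio that no scaling of a whole library can change. *Dld*, the E3 subunit shared by pyruvate and 2-oxoglutarate dehydrogenase, rose by 1.35 from 1973 and 1850 to 4907 and 4830 normalized counts, and by 0.38 after the correction. *Dlat*, the E2 core, rose by 0.62 and *Pdhx*, the E3-binding protein, by 0.45. Neither was called after the correction, with log2 fold changes of 0.26 and -0.05, and *Pdhx* was not called when any one of the 4 mice was left out.

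The kinases and phosphatases that switch this complex off and on were followed as a list of 7 genes. In it 4 rose and 1 fell, against 29.0% and 27.7% of all genes tested, with a median of 0.74. The kinase *Pdk1*, which inactivates E1, rose from 901 and 961 to 2366 and 2013 normalized counts (log2 fold change 1.23), and *Pdk3*, another kinase, rose by 0.74. *Pdp2*, a phosphatase that reactivates the complex, rose by 1.41 and *Pdpr*, a regulatory subunit of the phosphatase, by 1.25. These 4 were also higher after the correction, at 0.74, 0.49, 1.05 and 0.96, though *Pdp2* was not called without *Bmal1* cKO mouse 1. *Pdp1*, the other phosphatase, named here after its values were seen, had 337 and 302 normalized counts against 381 and 323 (log2 fold change 0.14, adjusted p = 0.462 from limma) and was lower after the correction, at -1.0 (adjusted p = 0.00834). *Pdk2* fell by 0.86 (adjusted p = 0.047 from limma), with 190 and 285 normalized counts against 108 and 151, but it was not called when any one of the 4 mice was left out and its log2 fold change was 0.04 after the correction. *Pdk4* had 78.6 and 62.7 against 25.7 and 85.2, groups that overlap (log2 fold change -0.57, adjusted p = 0.440 from limma).

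Citrate synthase, the product of *Cs* (ENSMUSG00000005683, chromosome 10, 128337734 to 128362479, plus strand), joins acetyl-CoA to oxaloacetate and is the enzyme most often used as a measure of mitochondrial mass. *Cs* had 5612 and 6647 normalized counts in control mice against 6359 and 6203 in *Bmal1* cKO mice. Both *Bmal1* cKO values lay between the control values. The log2 fold change was 0.04 (standard error 0.12, 95% interval -0.26 to 0.34, adjusted p = 0.784 from limma), and -0.19 after the correction. Its direction depends on the scaling. With the libraries scaled to the epithelial genes *Cs* was called higher, at 0.73 (adjusted p = 0.00273 from limma), and it was at -0.19 and -0.13, not called, with them scaled to all their reads and to mitochondrial genes.

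Isocitrate is oxidized by a NADP-dependent enzyme, from *Idh2*, and by a NAD-dependent enzyme built from *Idh3a*, *Idh3b* and *Idh3g*. *Idh2* (ENSMUSG00000030541, chromosome 7, 80094846 to 80115392, minus strand) had 1053 and 889 normalized counts in control mice against 843 and 966 in *Bmal1* cKO mice. The groups overlap, and the log2 fold change was -0.10 (standard error 0.13, 95% interval -0.43 to 0.23, adjusted p = 0.539 from limma). *Idh2* is the most GC-rich of the 9 at 55.6%. The 1286 genes of like GC content had a median log2 fold change of -0.73, with 52.2% of them lower and 1.79% higher. After the correction the log2 fold change of *Idh2* was 0.64 (adjusted p = 0.0183 from limma), so whether *Idh2* is called depends on this step. It was also called higher with the epithelial scaling, at 0.59 (adjusted p = 0.0259 from limma), but that scaling is not independent of the GC trend.

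*Idh3a* (ENSMUSG00000032279, chromosome 9, 54586334 to 54604661, plus strand) encodes the catalytic subunit and had 2187 and 2174 normalized counts in control mice against 3117 and 3550 in *Bmal1* cKO mice. It rose by 0.61 (standard error 0.10, 95% interval 0.36 to 0.86, adjusted p = 0.00495 from limma). *Idh3b* (ENSMUSG00000027406, chromosome 2, 130279309 to 130284547, minus strand) encodes a regulatory subunit and had 1691 and 1806 against 2202 and 2399. It rose by 0.40 (standard error 0.10, 95% interval 0.16 to 0.64, adjusted p = 0.0178 from limma). With the libraries scaled to all their reads and to mitochondrial genes *Idh3b* was at 0.17 and 0.22, not called. For both genes the groups stood apart, yet both gave less after the correction, 0.25 for *Idh3a* (adjusted p = 0.0900) and 0.13 for *Idh3b* (adjusted p = 0.289), and neither was then called. The rise of *Idh3b* was also not called without control mouse 1 or either *Bmal1* cKO mouse. *Idh3g*, the other regulatory subunit, had 1522 and 1425 against 2042 and 2547 and rose by 0.63 (adjusted p = 0.0107 from limma), and by 0.78 after the correction, but was not called without either control mouse or *Bmal1* cKO mouse 2. Per length, the ratio of *Idh3a* to *Idh3g* was 0.74 and 0.79 in control mice against 0.79 and 0.72 in *Bmal1* cKO mice, groups that overlap. The ratio of *Idh3a* to *Idh3b* was 0.81 and 0.75 against 0.89 and 0.93, a small gap without overlap.

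*Ogdh* (ENSMUSG00000020456, chromosome 11, 6291633 to 6356642, plus strand) encodes the E1 component of 2-oxoglutarate dehydrogenase. It had 3578 and 3891 normalized counts in control mice against 3545 and 3701 in *Bmal1* cKO mice, groups that overlap. The log2 fold change was -0.04 (standard error 0.09, 95% interval -0.28 to 0.19, adjusted p = 0.714 from limma), and 0.22 after the correction. *Dlst*, the E2 core of the same enzyme, had 2594 and 2554 against 2527 and 2522, with a log2 fold change of -0.03 (adjusted p = 0.789 from limma). Both values depend on the scaling. With the libraries scaled to the epithelial genes *Ogdh* was at 0.65 and *Dlst* at 0.66, both called higher, and with them scaled to all their reads they were at -0.27 and -0.25, of which *Ogdh* was called lower. Succinyl-CoA ligase follows, with a common α subunit from *Suclg1* and a β subunit for ATP from *Sucla2* or for GTP from *Suclg2*. *Sucla2* rose from 838 and 878 to 1853 and 2055 normalized counts (log2 fold change 1.18, 0.48 after the correction), and *Suclg1* rose by 0.54 and was not called after the correction, without either control mouse or without *Bmal1* cKO mouse 2. *Suclg2* had a log2 fold change of 0.32 (adjusted p = 0.0970 from limma), which turned to -0.30 after the correction and was not called there either. Per length, the ratio of *Sucla2* to *Suclg2* was 0.67 and 0.63 in control mice against 1.25 and 1.10 in *Bmal1* cKO mice. *Suclg2* shares 98.9% identity over 1302 aligned bases with the pseudogene *Gm15163*.

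*Sdha* (ENSMUSG00000021577, chromosome 13, 74322254 to 74350280, minus strand) encodes the flavoprotein of succinate dehydrogenase, which oxidizes succinate to fumarate. It had 3332 and 3278 normalized counts in control mice against 6249 and 7414 in *Bmal1* cKO mice. Both *Bmal1* cKO mice were far above both control mice, which differed little from each other. *Sdha* rose 2.06-fold, a log2 fold change of 1.04 (standard error 0.12, 95% interval 0.75 to 1.33, adjusted p = 0.00139 from limma). Its GC content is 48.5%, and the 1506 genes of like GC content had a median of 0.17, with 30.1% of them higher. After the correction the log2 fold change was 0.84 (adjusted p = 0.0068).

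The other 3 subunits rose with it. *Sdhb*, the iron-sulfur subunit, had 1557 and 1729 normalized counts in control mice against 3563 and 4383 in *Bmal1* cKO mice (log2 fold change 1.27, adjusted p = 0.00115 from limma). *Sdhc*, one of the membrane anchors, had 1375 and 1486 against 2301 and 2347 (0.70, adjusted p = 0.00218). *Sdhd*, the other anchor, had 2088 and 2276 against 4320 and 4459 (1.01, adjusted p = 8.58e-04). All 4 subunits were also higher after the correction, at 0.84, 1.81, 0.52 and 1.03 in this order from *Sdha*. *Sdhb* is the most GC-rich of the 4 at 53.4%, and its rise grew most with the correction. Summed, the reads on the 4 genes were 717 and 731 reads-per-million (RPM) in control mice against 1198 and 1335 in *Bmal1* cKO mice. The ratio of *Sdhd* to *Sdha* was 1.48 and 1.64 against 1.63 and 1.42 per length, groups that overlap, and *Sdhc* to *Sdha* went from 0.38 and 0.41 to 0.34 and 0.29. *Sdha* to *Sdhb* was 0.84 and 0.75 against 0.69 and 0.67, without overlap, and these ratios hold no GC correction. Of 7 genes for assembly of the complex and for the lipoyl cofactor, 2 rose and none fell by limma (1 at an unadjusted p under 0.05). All genes tested gave 29.0% and 27.7%, and the median of the 7 was 0.004. The 2 were the assembly factors *Sdhaf3* (0.97) and *Sdhaf2* (0.72), and neither was called after the correction, at -0.11 and -0.19. The assembly factor *Sdhaf1*, named here after its values were seen, went the other way at low counts, 32.9 and 17.8 against 8.2 and 1.4. Its log2 fold change was -2.44 (adjusted p = 0.0678 from limma), and -2.35 after the correction, not called in either. *Sdhaf3* was not called when any one of the 4 mice was left out. *Lias*, the lipoyl synthase, named here after its values were seen, was at -0.12 (adjusted p = 0.520 from limma) and was lower after the correction, at -0.51 (adjusted p = 0.0451).

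*Fh1* (ENSMUSG00000026526, chromosome 1, 175600374 to 175625635, minus strand) encodes fumarase, which hydrates fumarate to malate. It had 1440 and 1375 normalized counts in control mice against 3238 and 3777 in *Bmal1* cKO mice, so the lowest *Bmal1* cKO value was well above the highest control value. *Fh1* rose 2.48-fold, the most of the 9. Its log2 fold change was 1.31 (standard error 0.11, 95% interval 1.04 to 1.59, adjusted p = 6.82e-04 from limma). The 1534 genes of like GC content had a median of 0.28, with 35.1% of them higher. After the correction the log2 fold change was 1.03 (adjusted p = 0.0040). *Fh1* overlaps *Kmo* on the opposite strand over 5255 bases, but *Kmo* had a mean of 26.7 normalized counts, low beside *Fh1*. *Fh1* and *Sdha* kept their direction and their call in all 18 alternatives tried.

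*Mdh2* (ENSMUSG00000019179, chromosome 5, 135778480 to 135790398, plus strand) encodes the mitochondrial malate dehydrogenase, which regenerates oxaloacetate and closes the cycle. It had 3549 and 3392 normalized counts in control mice against 2805 and 2598 in *Bmal1* cKO mice, with both *Bmal1* cKO mice below both control mice. *Mdh2* fell by 0.36 on the log2 scale (standard error 0.09, 95% interval -0.59 to -0.13, adjusted p = 0.0213 from limma), but the value was 0.33 with the libraries scaled to the epithelial genes (adjusted p = 0.152 from limma). After the GC and length correction it was -0.18 (adjusted p = 0.204). The fall was also not called when any one of the 4 mice was left out, with adjusted p between 0.0582 and 0.117 and log2 fold changes between -0.42 and -0.31. Per length, the ratio of *Fh1* to *Mdh2*, a pair chosen after its values were seen, was 0.224 in both control mice but 0.638 and 0.803 in *Bmal1* cKO mice.

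**Figure D2:**
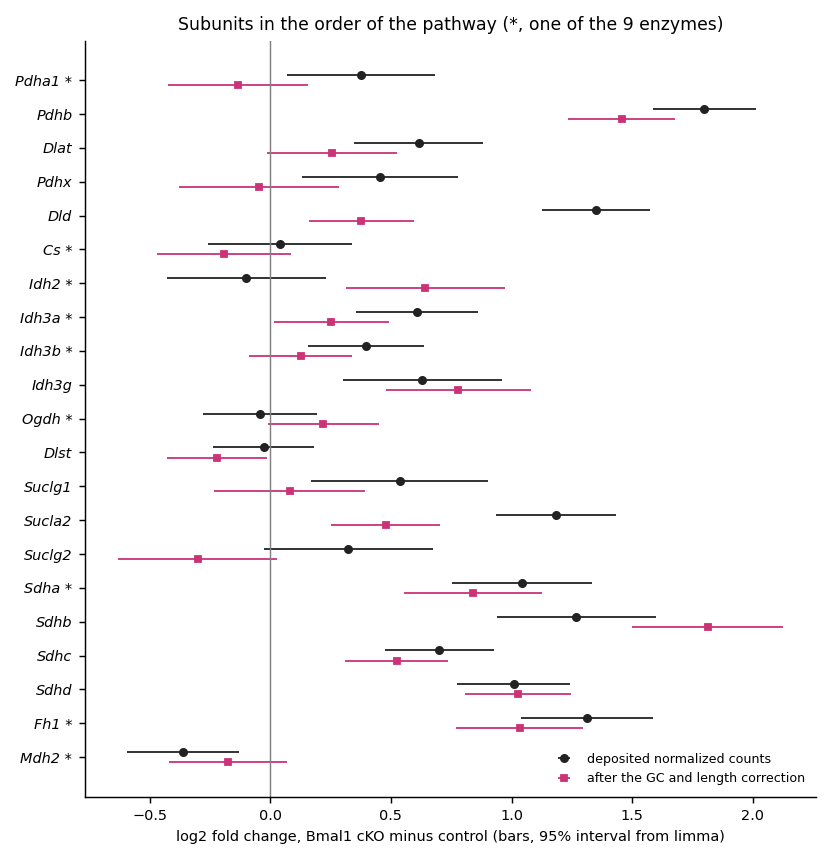
Log2 fold change, *Bmal1* cKO minus control, with its 95% interval from limma (horizontal axis) for the 9 enzymes, marked by a star, and 12 other subunits in pathway order, from the deposited normalized counts (circles) and after the GC and length correction (squares). The 4 succinate dehydrogenase subunits, *Fh1*, *Pdhb*, *Dld*, *Sucla2*, *Idh3g* and narrowly *Idh3a* have intervals above 0 under both, and *Mdh2*, at -0.36, reaches 0.33 only under the epithelial scaling, which is not drawn.

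The other 12 subunits of these enzymes were followed as a list written from textbook knowledge. In it 10 rose by limma, none fell (0 at an unadjusted p under 0.05, and 0 called by edgeR or DESeq2) and 2 were not called (*Suclg2* and *Dlst*), with a median log2 fold change of 0.67. Of all genes tested, 29.0% rose and 27.7% fell. Among genes of like GC content the share that rose ran from 7.27% for *Sdhb* to 68.8% for *Dld*. After the correction 7 of the 12 were higher (*Pdhb*, *Dld*, *Idh3g*, *Sdhb*, *Sdhc*, *Sdhd* and *Sucla2*), none was lower (1, *Dlst*, at an unadjusted p under 0.05) and the median was 0.43. Of all genes 17.3% were then higher and 17.9% lower. The count of 10 stayed between 7 and 12 over the 18 alternatives, and none was called lower in any. *Pdhb*, *Dld*, *Sdhb*, *Sdhc*, *Sdhd* and *Sucla2* kept their direction and call in all 18. As a sum, the reads on the 9 enzymes were 2087 and 2111 RPM in control mice against 2228 and 2389 in *Bmal1* cKO mice, and those on the 12 other subunits 1611 and 1590 against 2380 and 2570.

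**Figure D3:**
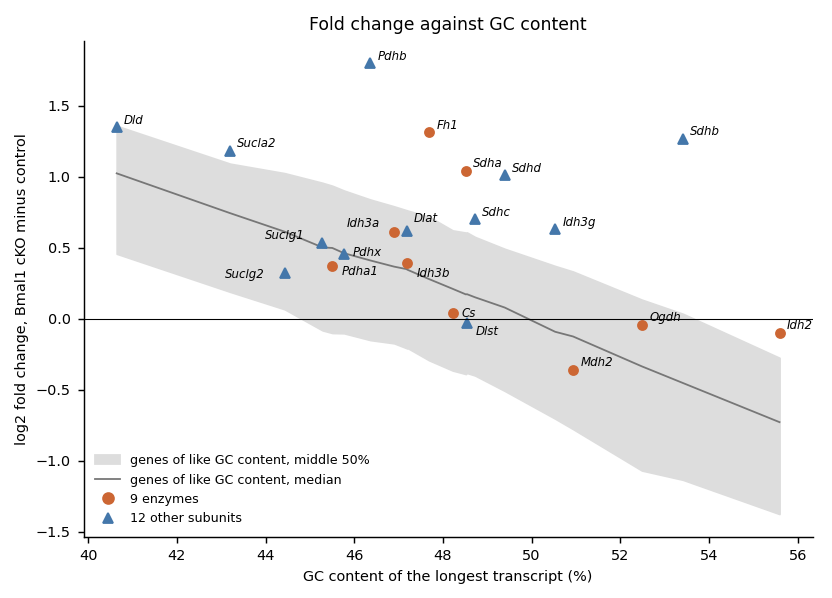
Log2 fold change, *Bmal1* cKO minus control (vertical axis), against the GC content of the longest transcript in percent (horizontal axis) for the 9 enzymes (circles) and 12 other subunits (triangles). The line and band give the median and the middle 50% of the genes within 1 percentage point of each one's GC content. *Fh1*, *Sdha*, *Idh2*, *Pdhb*, *Idh3g*, *Sucla2* and the 3 other succinate dehydrogenase subunits lie above the band, while *Pdha1*, *Cs*, *Mdh2*, *Dlst*, *Suclg2* and, narrowly, *Pdhx* lie below the line.

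Levels of different genes were compared as RPKM, the RPM of a gene divided by its exon length in kb. In the control mice *Mdh2* led with a mean RPKM of 202, followed by *Cs* at 177. Next came *Sdha* at 96.4, *Idh3b* at 91.5, *Idh3a* at 71.5, *Ogdh* at 71.0, *Pdha1* at 55.6, *Idh2* at 47.1 and *Fh1* at 45.2. The values of *Idh3a* and *Ogdh* overlapped between the control mice, and so did those of *Idh2* and *Fh1*, so the order within these pairs is not set. In the *Bmal1* cKO mice the order was *Sdha* at 170, *Cs* at 155, *Mdh2* at 134, *Idh3b* at 103, *Fh1* at 96.2, *Idh3a* at 93.4, *Pdha1* at 61.9, *Ogdh* at 58.9 and *Idh2* at 37.5. There *Sdha* (157 and 183) overlapped *Cs* (158 and 152), *Fh1* overlapped both *Idh3b* and *Idh3a*, and *Pdha1* overlapped *Ogdh*. *Mdh2* thus held place 1 in both control mice and place 3 in both *Bmal1* cKO mice, and *Fh1* moved from places 9 and 8 to place 5. On this scale, which divides by all reads of a library, the median over all genes was 0.22 lower (log2) than with the deposited size factors. *Cs*, *Ogdh* (69.0 and 72.9 against 58.1 and 59.7) and *Idh2* (51.8 and 42.5 against 35.2 and 39.7) were then lower in both *Bmal1* cKO mice than in both control mice, and *Pdha1* overlapped between the groups. Tested with this scaling, *Ogdh* was called lower, at -0.27 (adjusted p = 0.0472 from limma), and *Idh2*, at -0.33, was not (adjusted p = 0.0894).

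**Figure D4:**
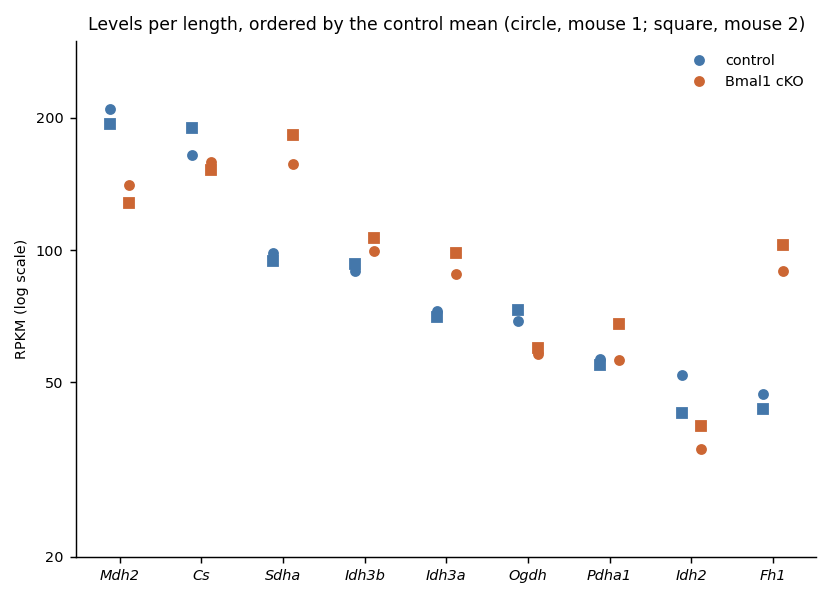
RPKM, reads-per-million for each kb of exon (vertical axis, log scale) of the 9 enzymes in each mouse, ordered by the control mean. In the *Bmal1* cKO mice *Sdha* and *Fh1* rise to 157 and 183 and to 89.6 and 103, and *Mdh2* is at 140 and 128 against 209 and 194, a direction that flips when the libraries are scaled to the epithelial genes.

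Malate dehydrogenase and the NADP-dependent isocitrate dehydrogenase each have a partner in the cytosol. A list of 7 genes held such cytosolic enzymes together with malic enzymes, of which *Me2* and *Me3* are mitochondrial. *Mdh1*, the cytosolic malate dehydrogenase, rose from 2598 and 2866 to 5138 and 7034 normalized counts (log2 fold change 1.14, 0.68 after the correction), while *Mdh2* was lower in the deposited scaling. The ratio of *Mdh2* to *Mdh1* per length was 1.99 and 1.72 in control mice against 0.80 and 0.54 in *Bmal1* cKO mice. *Aco1*, a cytosolic enzyme of the same list, rose by 0.38 but was not called without control mouse 1 or either *Bmal1* cKO mouse. *Idh1* had a log2 fold change of 0.10 and was not called, and the ratio of *Idh2* to *Idh1* was 0.354 and 0.286 against 0.275 and 0.280. After the correction *Idh1* was lower, at -0.56 (adjusted p = 0.0115 from limma), and *Idh2* higher, at 0.64, so the direction of this ratio is not the one the corrected values give. Of the 6 genes tested of the 7, *Mdh1*, *Aco1* and *Me2* rose and none fell by limma, edgeR or DESeq2 (0 at an unadjusted p under 0.05), and the largest rise was that of *Me2* at 1.25, or 0.65 after the correction. *Me3* was under the minimum.

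**Figure D5:**
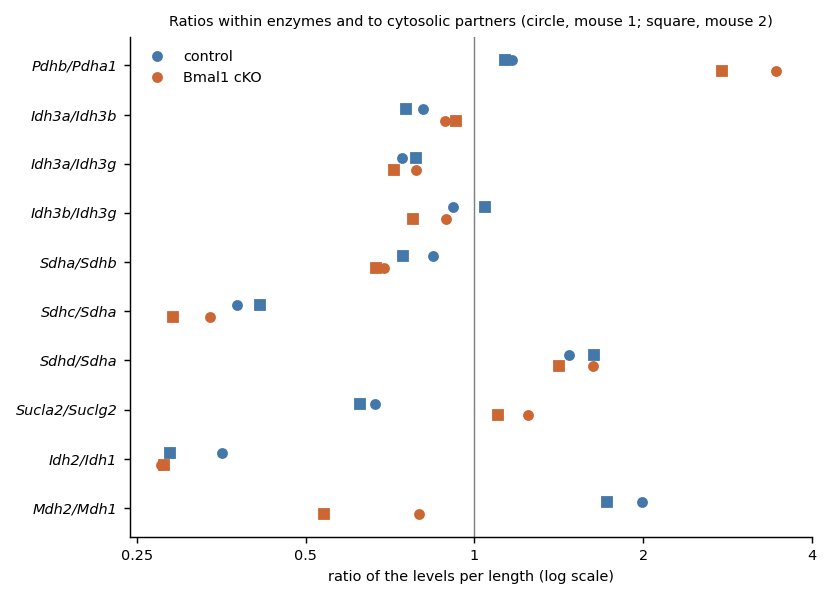
Ratio of the levels per length of 2 genes (horizontal axis, log scale) in each mouse, within enzymes and between mitochondrial and cytosolic partners. The points of *Pdhb*/*Pdha1*, *Sucla2*/*Suclg2* and *Mdh2*/*Mdh1* stand furthest apart between the groups, and those of *Idh3a*/*Idh3g* and *Sdhd*/*Sdha* overlap.

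Fuel reaches the cycle by carriers and by enzymes that feed its intermediates. Of 8 carriers 7 were listed, 3 rose and 2 fell, against 29.0% and 27.7% of all genes tested, with a median of 0.07. Both subunits of the mitochondrial pyruvate carrier rose, *Mpc1* by 1.12 from 49.8 and 66.1 to 108 and 147 normalized counts and *Mpc2* by 0.81. Neither was called after the correction, at 0.95 (adjusted p = 0.0507 from limma) and 0.21 (adjusted p = 0.124), and *Mpc1* was not called when any one of the 4 mice was left out. *Slc25a13*, an aspartate-glutamate carrier, rose by 0.76 and stayed called after the correction, at 0.41. *Slc25a11*, the 2-oxoglutarate carrier, named here after its values were seen, was at 0.02 and was called higher after the correction, at 0.59. The citrate carrier *Slc25a1* fell by 1.57 and the dicarboxylate carrier *Slc25a10* by 1.15, but after the correction they were at -0.33 and 0.30 and neither was called. Of 14 feeding enzymes 5 rose and none fell by limma, edgeR or DESeq2 (1 at an unadjusted p under 0.05), with a median of 0.16. Again the shares of all genes were 29.0% and 27.7% by limma. Lower calls appeared under other choices, 4 with the libraries scaled to all their reads, 2 with them scaled to mitochondrial genes and 1 without control mouse 1, and the 5 became 3 without either control mouse. The propionyl-CoA carboxylase subunit *Pcca* rose by 1.46, not called without either control mouse, and *Mmut*, which forms succinyl-CoA, by 1.30. After the correction they were at 1.09 and 0.43, both still called. *Pcx*, the pyruvate carboxylase, had 656 and 1073 normalized counts against 587 and 557 (log2 fold change -0.55, adjusted p = 0.0963 from limma). It was called without control mouse 1, at -0.91 (adjusted p = 0.0187), and was at -0.20 without control mouse 2 (adjusted p = 0.261). It was also called with the libraries scaled to all their reads or to mitochondrial genes, and its direction flipped under the epithelial scaling and the GC and length correction, at 0.14 and 0.40.

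A list of 18 genes of mitochondrial import, pores, chaperones and DNA maintenance gave a scale for mitochondrial transcripts outside the cycle. In it 9 rose and 5 fell, against 29.0% and 27.7% of all genes tested, with a median of 0.37. The pores *Vdac3* and *Vdac1* rose by 1.51 and 1.04, whereas *Tomm40* of the import pore fell by 1.59 and the prohibitin *Phb2* by 0.93. After the correction 7 were higher and 7 lower, with a median of 0.06, and these genes were at 0.49, 1.20, -1.02 and -0.40 in the same order. Among 9 regulators of mitochondrial gene expression 3 rose and 2 fell, shares close to the 29.0% and 27.7% of all genes tested. Both counts were lower in fits that left out a mouse, for the falls in all but the fit without *Bmal1* cKO mouse 1. *Ppargc1a*, a coactivator of mitochondrial biogenesis, rose by 1.20 from 137 and 272 to 403 and 493 normalized counts, and *Ppara*, a receptor that drives fatty acid oxidation genes, by 1.23. *Esrra*, a receptor that binds the element TNAAGGTCA, fell by 0.76 and *Pprc1* by 0.68. After the correction *Ppargc1a* was at 0.23 and *Pprc1* at -0.02, neither called, while *Ppara* was at 1.4 and *Esrra* at -0.72. *Ppargc1a* was at 0.71 without control mouse 1 (adjusted p = 0.0679 from limma) and at 1.70 without control mouse 2 (adjusted p = 0.0167), and it was not called without either *Bmal1* cKO mouse. *Ppara* and *Esrra* were called without *Bmal1* cKO mouse 1 and in no other fit that left a mouse out.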

How the data were processed

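Members and lists were chosen with earlier results of these data known. Bulk RNA sequencing came from colonic epithelial cells of 2 control and 2 *Bmal1* cKO mice. The authors aligned reads to GRCm38 with STAR and deposited a signal per gene and mouse, namely the gene count divided by a DESeq2 size factor. The counter, annotation and strand setting are not given in the sources used here. The labels name a VAHTS kit and the methods a NEBNext kit. The deposited fold changes, standard errors, test statistics and p-values of the authors' own comparison were not used.

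Of the values, 100% were whole multiples of 1 read within 0.01 of a read, which gave 13792634 and 14156639 reads in control mice against 13331145 and 10312791 in *Bmal1* cKO mice. The mice of a group differed by more than sampling noise, with a chi-square per gene of 46.2 and 11.1. Values were taken to log2(value + 1) and tested two-sided by limma 3.58.1 (with its trend option) over 13983 genes with a mean of at least 10. On the recovered reads edgeR 4.0.16 called 3861 genes higher and 3812 lower. With 2 mice against 2 an exact permutation test cannot go below p = 0.333, so none was run. Coordinates, exon lengths and GC content came from GENCODE M21 for 16003 of 16015 genes and promoters from RefSeq. Correction for GC content and length was by loess (span 0.3) in each library. Near-identical copies were transcripts of at least 95% identity over at least 150 bases in BLAST+ 2.17.0. The steps were tested on simulated data.

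The genes named were the 9 enzymes, the 12 other subunits, and of each other list the 2 largest rises and falls among genes called. To these came *Pdk1* to *Pdk4*, *Idh1*, *Mdh1*, *Aco1*, *Mpc1*, *Mpc2*, *Pcx*, *Ppargc1a*, *Esrra* and *Arntl* whatever their values, and the 5 genes most like the 9 in profile. Leukocyte, stromal and erythroid markers are given as sums. Some items are not reported here. Alternatives were other pseudocounts (0.5 and 5), filters, scalings, tools, a threshold of 0.01, a block for the mouse number and leaving out each mouse.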

Additional observations from a re-analysis of the deposited data

How the results depend on the processing

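With 2 mice a group, a fit without 1 mouse assumes that the lone mouse varies like the others. Each library held 10312791 reads or more, and whether depth or the spread between mice limits the 9 enzymes more was not tested. The cause of the changes below was not tested. The deviations of the mice numbered 1 in the 2 groups had a correlation of -0.09 over genes. With 2 mice a group this cannot show whether the samples were paired. The replicate block gave 3899 genes higher and 3789 lower and left 5 and 1 of the enzymes called. The 12 other subunits kept 7 to 9 higher without a mouse. Scaling shifted the median of all genes by -0.22 (library total), 0.69 (epithelial genes) and -0.17 (mitochondrial genes).

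With the epithelial scaling 6641 genes were higher and 1740 lower, with 8 and 0 of the enzymes. The median of the 9 was 1.07, and the log2 fold changes were 0.73 for *Cs*, 0.59 for *Idh2*, 0.65 for *Ogdh*, 0.33 for *Mdh2*, 0.54 for *Arntl*, 0.66 for *Dlst*, 0.12 for *Pdk4*, 0.14 for *Pcx* and 0.016 for *Pprc1*. Library total scaling gave 3091 genes higher and 4885 lower, 3 enzymes higher and 2 lower, a median of 0.15, and 0.15 for *Pdha1*, -0.19 for *Cs*, 0.17 for *Idh3b*, -0.27 for *Ogdh* and -0.13 for *Idh1*. Mitochondrial scaling gave 3248 genes higher and 4576 lower, 3 enzymes higher and 1 lower (*Mdh2*, -0.53), a median of 0.20, and 0.20 for *Pdha1*, -0.13 for *Cs*, 0.22 for *Idh3b* and -0.072 for *Idh1*. With edgeR *Pdha1* was at 0.37 and not called.

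The GC and length correction gave 2420 genes higher and 2497 lower, and 2052 and 2120 with the replicate block. With or without the replicate block it gave 3 enzymes higher and 0 lower, a median of 0.22, and -0.14 for *Pdha1*, -0.19 for *Cs*, 0.64 for *Idh2*, 0.25 for *Idh3a*, 0.13 for *Idh3b*, 0.22 for *Ogdh*, -0.18 for *Mdh2*, -0.048 for *Pdhx*, -0.30 for *Suclg2*, 0.038 for *Pdk2*, -0.56 for *Idh1*, 0.40 for *Pcx*, 0.30 for *Slc25a10*, -0.19 for *Sdhaf2*, -0.11 for *Sdhaf3* and 0.30 for *Cldn3*.

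At a threshold of 0.01, 2136 genes were lower, and 3 enzymes were higher and 0 lower, since *Pdha1* (0.37), *Idh3b* (0.40) and *Mdh2* (-0.36) were not called. Leaving out each mouse gave 2654 to 3154 genes higher and 2205 to 2852 lower, 3 to 4 enzymes higher and 0 lower, and a median of 0.23 to 0.46. The log2 fold changes ran from 0.23 to 0.52 for *Pdha1*, -0.082 to 0.16 for *Cs*, -0.22 to 0.023 for *Idh2*, 0.33 to 0.46 for *Idh3b*, -0.10 to 0.018 for *Ogdh* and -0.42 to -0.31 for *Mdh2*. *Pdk4* ran from -1.41 to 0.28, highest without *Bmal1* cKO mouse 1.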

Other observations

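The 5 genes outside the list whose 4 values lay nearest to the mean profile of the 9 enzymes were *Prkd3*, a protein kinase, *Tusc3*, a subunit of oligosaccharyl transferase, *Riok1*, a kinase of ribosome assembly, *Wfdc2*, a secreted protease inhibitor of epithelia, and *Ndufv2*, a subunit of complex I. Among 9974 candidates (mean normalized count of 100 or more) their root mean square difference over the 4 libraries was between 0.011 and 0.017 on the log2 scale. The profile of the 9 was -0.18 and -0.18 in control mice against 0.12 and 0.25 in *Bmal1* cKO mice, centred on its mean. *Ndufv2* had 1270 and 1256 normalized counts in control mice against 1583 and 1738 in *Bmal1* cKO mice. With 4 values a profile holds little more than the difference between the groups, and many genes have one like it.

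The 2 mice of a group agreed closely for some enzymes and less for others. *Idh3a* and *Pdha1* differed 1.01-fold between the control mice and 1.14-fold and 1.23-fold between the *Bmal1* cKO mice. *Cs* and *Idh2* differed 1.18-fold and 1.19-fold between the control mice, and 1.03-fold and 1.15-fold between the *Bmal1* cKO mice.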
